A study of Mus musculus with 15 samples.

Results

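The large Maf factor Maf, the small Maf factors Maff, Mafg and Mafk, and the factors Bach1 and Bach2 were followed across sorted myeloid progenitors, bone marrow cultures and monocytes of C57Bl/6 mice. The members were taken by symbol, as every probe set that the array annotation assigns to one of these 6 genes alone. A probe set is a group of short oligonucleotides read out as 1 value for a transcript. The rule found 15 probe sets of 6 genes, among 34945 probe sets with a single gene (18193 genes) on the array. It used no measured value, but the 6 genes were chosen with earlier results of these data known. Maf had 6 probe sets, Bach2 had 3, Mafg and Bach1 had 2 each, and Maff and Mafk had 1 each.

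All members are basic leucine zipper proteins, which bind DNA in pairs. Maf carries an activation domain and takes part in macrophage and lymphocyte differentiation, whereas the small Maf proteins lack one and act through their partners. Those partners are the CNC factors such as Nfe2 and Nfe2l2 (Nrf2), which activate antioxidant and haem genes, and Bach1 and Bach2, which repress from the same kind of site, the Maf recognition or antioxidant response element. Bach1 is released from DNA when haem binds it, and Bach2 is known for holding back plasma cell genes in B cells and myeloid genes in lymphoid progenitors.

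RNA of wild-type C57Bl/6 mice was hybridised to 15 one-colour Affymetrix 3' arrays. Of the bone marrow progenitor sorts, common myeloid progenitors (CMP) were CD117hi CD135+ cells free of PI, Lin, IL7R, MHCII, CD16/32 and CD11c staining, and granulocyte-macrophage progenitors (GMP) were CD117hi CD16/32+ CD135- cells free of PI, IL7R, MHCII and CD11c staining. Common dendritic cell progenitors (CDP) had the CMP gate with CD117int, and the classical dendritic cell precursors (pre-cDC) were CD11c+ CD135+ CD117lo. Each of these 4 groups had 2 arrays, titled WT1 and WT2. Nothing in the labels says that both came from separate animals or cell pools, so the p-values reflect just the spread of these arrays, which may be technical. A further pre-cDC array is titled Spl, although its cell type label reads bone marrow progenitor, and it stood alone. Whole bone marrow grown for 7 days at 20 ng/ml gave 3 single arrays. They held non-adherent CD11c+ cells purified from GM-CSF cultures, adherent cells of GM-CSF cultures, and adherent cells of M-CSF cultures, where adherence was the sole selection. Bone marrow monocytes, enriched by negative selection, were taken before culture (0 h) and after 24 or 48 h with GM-CSF at 20 ng/ml, 1 array for each time.

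The deposited values are linear intensities on 4 scales. The median over all probe sets was 15.9 to 17.4 on the progenitor arrays, 24.1 to 25.7 on the culture arrays, 77.7 to 80.5 on the monocyte arrays and 74.2 on the Spl array. Comparisons were therefore kept within 1 scale, and a value near or under its array's median is called dim. Replicate progenitor arrays correlated at 0.994 to 0.996 across probe sets, and 6 to 19 probe sets were at least 2-fold apart between them. In the bone marrow progenitor groups, the marker genes given here stood where the sort labels place them. Zbtb46, a classical dendritic cell factor, had intensities of 383 and 422 in pre-cDC and at most 34.1 in the other 3 groups, and Elane, neutrophil elastase, had 3594 and 3712 in GMP. Flt3, which encodes CD135, had 35.9 and 31.8 in GMP and at least 1193 in the other groups. Kit, which encodes CD117, had 36.3 and 36.8 in bone marrow pre-cDC, which were sorted as CD117lo. On the Spl array, which has another scale, Kit had 1105, well above that array's median. All samples are bulk RNA, so fewer cells of a type and less RNA per cell cannot be told apart.

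The members lie apart in the genome (GRCm38.p6 assembly, RefSeq). Maf spans chr8:115703253-115706894, Maff chr15:79346621-79359078, Mafg chr11:120625117-120634955, Mafk chr5:139791536-139802653, Bach1 chr16:87698954-87733346 and Bach2 chr4:32238413-32586109. Positions of the probes within the transcripts were not used here. RefSeq start-site windows, from 250 bases before to 50 bases after a transcript start, were matched for 5 of the 6 members, with 7 windows in all. The windows of Bach2, Bach1 and Mafk are printed because these genes separated the progenitor groups, and 1 of the 3 windows of Maff because this gene had the largest difference among the members in monocytes. Each is written 5′ to 3′ on the strand of the gene, which is the plus strand for all 4, and capitals mark matches to the motifs searched on both strands.
Bach2, chr4:32417185-32417484: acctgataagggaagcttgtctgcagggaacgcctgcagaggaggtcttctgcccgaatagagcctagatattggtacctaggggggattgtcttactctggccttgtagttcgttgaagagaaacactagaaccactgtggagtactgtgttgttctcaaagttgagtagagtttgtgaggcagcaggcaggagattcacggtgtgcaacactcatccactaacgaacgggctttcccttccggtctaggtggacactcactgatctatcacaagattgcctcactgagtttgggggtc
Bach1, chr16:87698704-87699003: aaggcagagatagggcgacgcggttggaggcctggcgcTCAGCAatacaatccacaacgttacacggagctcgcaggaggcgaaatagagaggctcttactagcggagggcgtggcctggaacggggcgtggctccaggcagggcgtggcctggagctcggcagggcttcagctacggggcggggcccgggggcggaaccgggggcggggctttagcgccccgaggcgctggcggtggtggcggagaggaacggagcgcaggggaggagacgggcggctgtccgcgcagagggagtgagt
Mafk, chr5:139791286-139791585: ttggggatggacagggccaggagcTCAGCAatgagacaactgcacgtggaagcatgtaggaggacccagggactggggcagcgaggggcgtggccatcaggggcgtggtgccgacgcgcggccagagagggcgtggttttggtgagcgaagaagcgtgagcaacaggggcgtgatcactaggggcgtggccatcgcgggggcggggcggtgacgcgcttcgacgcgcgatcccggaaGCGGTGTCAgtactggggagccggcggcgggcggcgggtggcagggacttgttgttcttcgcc
Maff, chr15:79347270-79347569: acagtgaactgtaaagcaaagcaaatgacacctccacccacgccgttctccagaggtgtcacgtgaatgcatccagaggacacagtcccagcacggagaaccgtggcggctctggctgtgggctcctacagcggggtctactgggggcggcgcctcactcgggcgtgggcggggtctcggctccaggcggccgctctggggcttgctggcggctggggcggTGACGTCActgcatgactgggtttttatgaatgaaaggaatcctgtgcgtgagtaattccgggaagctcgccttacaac

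The motifs were TGACNNNGC, the core of the antioxidant response element, TGAGTCA, the AP-1 site within the Maf recognition element, TGACGTCA, the cyclic AMP response element, and TGCTGA, a part of the Maf recognition element. TGACNNNGC was found in 3 of the 7 member windows and in 12.39% of all 32851 windows. In the Mafk window the match starts 13 bases before the transcript start and was read on the other strand. TGCTGA was in 2 of 7 member windows, those of Bach1 and Mafk, and in 19.48% of all windows. TGACGTCA was in the Maff window printed here, 29 bases before the start, and in 1.79% of all windows. TGAGTCA was in 0 of the 7 windows and in 5.202% of all windows. The Bach2 window held none of the 4 motifs. It lies inside the annotated span of the gene, whose first base is upstream of it. The GC content was 50.3% in the Bach2 window and 68.3% to 69.7% in those of Mafk, Mafg and Bach1, beside a median of 52.7% over all windows. A match describes letters in a window and does not show that a factor binds there.

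Among the progenitors, both Bach genes were highest in pre-cDC, Mafk was lowest in GMP, Mafg was highest in GMP by its brighter probe set, and Maf and Maff were dim in every group. Differences were tested with limma on log2(intensity + 32) over all 34945 probe sets, with Benjamini-Hochberg adjustment and a threshold of 0.05. Of the 15 member probe sets, 6 were higher and 0 lower in pre-cDC than in CDP, where 28.3% of all probe sets were called. In pre-cDC against CMP 7 were higher and 0 lower, where 38.0% of all were called. In pre-cDC against GMP 6 were higher and 2 lower, where 41.4% of all were called. In CDP against CMP 2 were higher and 0 lower, where 10.9% of all were called. In CDP against GMP 4 were higher and 1 lower, where 25.7% of all were called, and in GMP against CMP 0 were higher and 3 lower, where 14.2% of all were called. The members' shares of called probe sets were 13.3% to 53.3%, near the background of the same comparison, so these counts say nothing particular about the members.

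**Figure D1:**
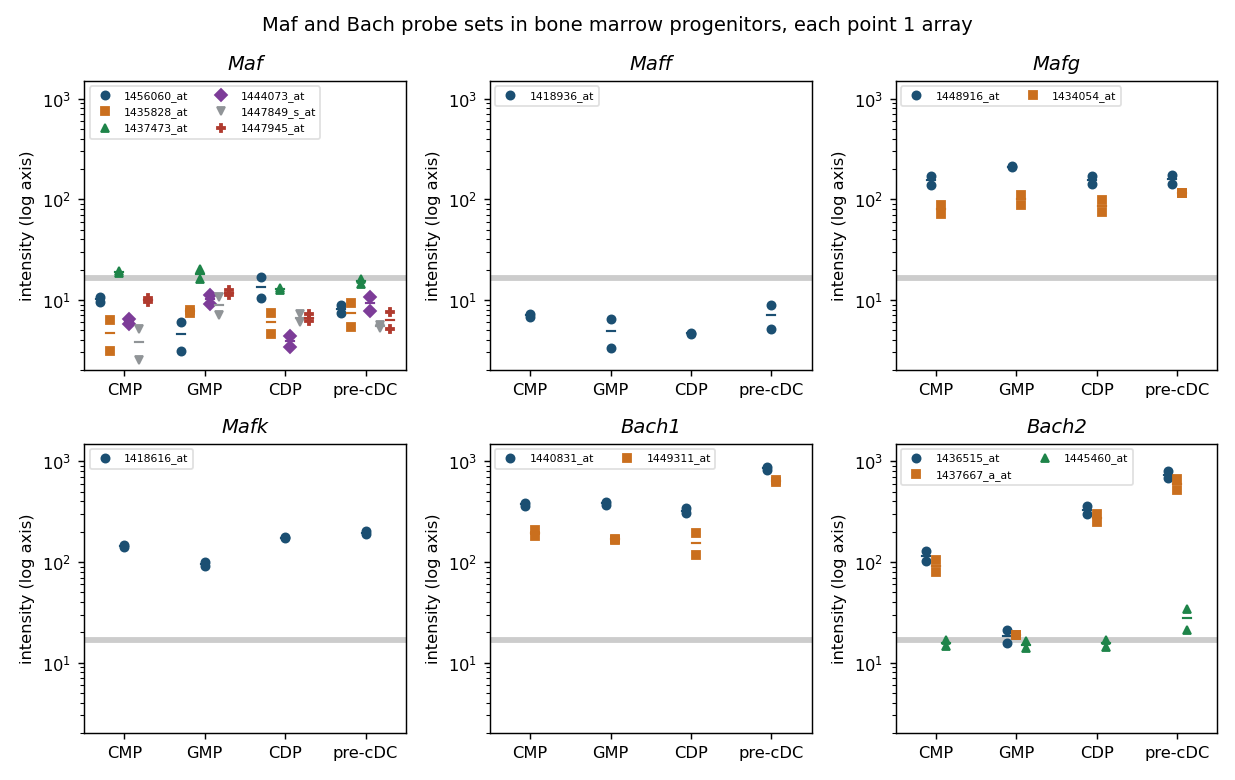
Intensity of all 15 member probe sets (log axis, arbitrary units) on the 8 progenitor arrays, by gene and in the order CMP, GMP, CDP and pre-cDC. Points are single arrays, short bars are group means, and the grey band spans the medians of all probe sets on these arrays, 15.9 to 17.4. Bach2 climbs across CMP, CDP and pre-cDC and lies near the band in GMP at 1436515_at and 1437667_a_at. The remaining Bach2 probe set, 1445460_at, is dim outside pre-cDC. Bach1 stands apart in pre-cDC at both probe sets. Maf and Maff lie in or under the band, except Maf 1437473_at, at 12.7 to 20.2.

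Bach2, the Bach factor best known from lymphoid cells, separated all 4 progenitor groups. Its brightest probe set, 1436515_at, had intensities of 102 and 127 in CMP, 15.6 and 21.2 in GMP, 301 and 362 in CDP and 682 and 797 in pre-cDC. The arrays of no group overlapped those of another, GMP lay at the level of the array medians, and pre-cDC were the brightest. Pre-cDC exceeded CDP by 1.09 on the log2 scale (SE 0.14, adjusted p = 4.63e-05), and CDP exceeded CMP by 1.31 on the log2 scale (SE 0.14, adjusted p = 5.27e-05). GMP differed from CMP by -1.54 on the log2 scale (SE 0.14, adjusted p = 7.62e-06). All 3 steps of the order of levels, GMP, CMP, CDP and pre-cDC, thus passed the test, and pre-cDC were 6.43-fold above CMP in mean intensity. No ratio is given against GMP, whose values are dim.

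A second Bach2 probe set, 1437667_a_at, gave the same order, with 79.2 and 104 in CMP, 18.9 and 18.9 in GMP, 251 and 300.3 in CDP and 523 and 667 in pre-cDC. Its differences were 1.02 for pre-cDC against CDP (adjusted p = 0.000124), 1.32 for CDP against CMP (adjusted p = 7.40e-05) and -1.27 for GMP against CMP (adjusted p = 6.06e-05) on the log2 scale. The third, 1445460_at, was dim outside pre-cDC, with 20.9 and 34.2 in pre-cDC and 13.9 to 16.9 in the other groups. Its difference for pre-cDC against CDP was 0.31 on the log2 scale (SE 0.10, adjusted p = 0.0339), and the call was lost without any 1 array other than pre-cDC replicate 1, with adjusted p = 0.302 without pre-cDC replicate 2. The B lineage markers, given here because Bach2 is a B cell gene, had summed intensities of 398 and 433 in CMP, 406 and 375 in GMP, 541 and 469.7 in CDP and 469 and 432 in pre-cDC over 8 measured genes, of which 3 or 4 lay above the array median. In pre-cDC, Cd79a had 1.37 and 3.05, Ebf1 161 and 165 and Cd79b 129.7 and 105. Blnk, also of this list, had 32.4 and 32.4 in CMP, 12.15 and 9.71 in GMP, 109 and 90.0 in CDP and 74.3 and 59.8 in pre-cDC. Like Bach2 it was lowest in GMP and higher in CDP and pre-cDC than in CMP, but it was highest in CDP. Of the 8, 2 were called higher and 1 lower in pre-cDC than in CMP, beside 18.7% and 22.6% of all genes. Against CDP 1 was higher and 2 lower, beside 13.7% and 18.1%. The part of the B lineage transcripts in the differences of Bach2 was not tested.

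Bach1, the haem-sensing repressor, was well above the array median in all progenitors and was higher in pre-cDC. Probe set 1440831_at had 358 and 390.2 in CMP, 396 and 373 in GMP, 345 and 305 in CDP and 824 and 885 in pre-cDC. The pre-cDC arrays lay above all others, and the other 3 groups lay between 305 and 396. Pre-cDC exceeded CDP by 1.31 on the log2 scale (SE 0.11, adjusted p = 1.36e-06), a ratio of 2.63 in mean intensity. The differences of pre-cDC were 1.09 against GMP (adjusted p = 2.83e-06) and 1.13 against CMP (adjusted p = 2.49e-06) on the log2 scale. CMP, GMP and CDP did not pass the test against each other, with adjusted p = 0.884 for GMP against CMP, 0.351 for CDP against CMP and 0.166 for CDP against GMP. The other probe set, 1449311_at, had 206 and 182 in CMP, 166 and 169.6 in GMP, 117 and 193 in CDP and 629.8 and 655 in pre-cDC. It showed the same separation, with 1.88 on the log2 scale (SE 0.16, adjusted p = 1.78e-06) for pre-cDC against CDP. Monocyte markers were higher in the same group, with 4 of 4 measured called higher in pre-cDC than in CDP, GMP and CMP, beside 13.7%, 20.7% and 18.7% of all genes. Their summed intensities were 655 and 563 in CMP, 631 and 471 in GMP, 1987 and 1789 in CDP and 7219.7 and 7535 in pre-cDC, and their part in the higher values of Bach1, Bach2 and Cd163 in pre-cDC was not tested.

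Mafk, a small Maf that serves as partner for both CNC and Bach factors, formed a graded series of smaller steps. Probe set 1418616_at had 142 and 149 in CMP, 90.9 and 99.98 in GMP, 178 and 172 in CDP and 202 and 191 in pre-cDC. The 4 groups did not overlap, with GMP lowest and pre-cDC highest. GMP differed from CMP by -0.48 on the log2 scale (SE 0.11, adjusted p = 0.00854), and CDP exceeded GMP by 0.70 on the log2 scale (SE 0.11, adjusted p = 0.00034). Pre-cDC exceeded GMP by 0.84 on the log2 scale (SE 0.11, adjusted p = 2.43e-05) and CMP by 0.36 on the log2 scale (SE 0.11, adjusted p = 0.0153). Neither CDP against CMP (0.22, adjusted p = 0.238) nor pre-cDC against CDP (0.14, adjusted p = 0.378) passed the test, so these neighbours in the order were not resolved. The call of GMP against CMP rested on single arrays, with adjusted p = 0.0965 without GMP replicate 1 and 0.0749 without CMP replicate 2. That of pre-cDC against CMP had adjusted p = 0.0841 without CMP replicate 1 and 0.0693 without pre-cDC replicate 1.

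Mafg, a second small Maf, varied little, and its probe sets ranked the groups differently. Probe set 1448916_at had 139.9 and 172 in CMP, 208 and 213 in GMP, 142 and 169 in CDP and 143 and 175 in pre-cDC. Both GMP arrays lay above all others, while the remaining groups overlapped. Pre-cDC differed from GMP by -0.35 on the log2 scale (SE 0.13, adjusted p = 0.0479). The differences of GMP against CMP (0.37, adjusted p = 0.0797) and of CDP against GMP (-0.38, adjusted p = 0.0517) lay just outside the threshold. Probe set 1434054_at had 88.5 and 71.1 in CMP, 88.6 and 111 in GMP, 75.1 and 97.5 in CDP and 115 and 116 in pre-cDC. Its highest group was pre-cDC, which exceeded CMP by 0.40 on the log2 scale (SE 0.13, adjusted p = 0.0279). Neither call held when single arrays were left out. The adjusted p of pre-cDC against GMP at 1448916_at was 0.139 without GMP replicate 1, 0.169 without GMP replicate 2 and 0.274 without pre-cDC replicate 1, and that of pre-cDC against CMP at 1434054_at was 0.215 without CMP replicate 2, 0.088 without pre-cDC replicate 1 and 0.103 without pre-cDC replicate 2.

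**Figure D2:**
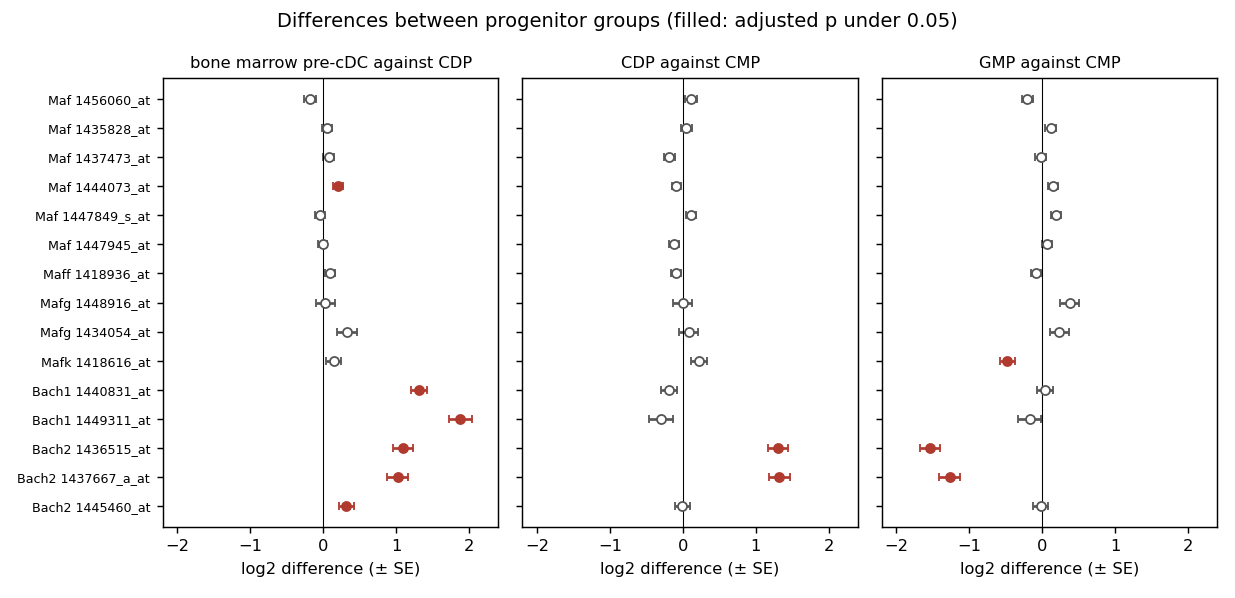
Log2 differences of intensity + 32 for all 15 member probe sets, in pre-cDC against CDP, CDP against CMP and GMP against CMP. Bars are standard errors from the limma fit, and filled points have adjusted p under 0.05. Bach2 passes in all 3 comparisons at 1436515_at and 1437667_a_at. Both Bach1 probe sets, Bach2 1445460_at and the dim Maf 1444073_at pass in pre-cDC against CDP alone, and Mafk in GMP against CMP alone.

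Maf, the macrophage and lymphocyte activator, was dim in the progenitors. Its brightest probe set over all 15 arrays, 1456060_at, had 9.47 and 10.8 in CMP, 3.07 and 6.03 in GMP, 10.3 and 16.8 in CDP and 7.39 and 8.83 in pre-cDC, and exceeded the array median on 0 of the 8 arrays. The same held for 4 other Maf probe sets, and 1437473_at exceeded it on 4 of 8 arrays, at 12.7 to 20.2. Maff, a stress-inducible small Maf, had 3.35 to 8.91 at 1418936_at, above the array median on 0 of 8 arrays, and passed no test among progenitors. Among the dim values of Maf, CDP exceeded GMP at 1456060_at by 0.32 on the log2 scale (SE 0.0789, adjusted p = 0.00981), with adjusted p = 0.115 without GMP replicate 1 and 0.0991 without CDP replicate 2. Probe set 1444073_at had -0.23 for CDP against GMP (adjusted p = 0.0191) and 0.20 for pre-cDC against CDP (adjusted p = 0.0362). Probe set 1447945_at had -0.19 for pre-cDC against GMP (adjusted p = 0.0316). These 3 calls were lost on leaving out single arrays, with adjusted p = 0.139 for the first without GMP replicate 2, 0.202 for the second without pre-cDC replicate 2 and 0.177 for the last without pre-cDC replicate 2. The Maf probe sets gave no common order of the groups, and the values of these 2 probe sets on the progenitor arrays were all under 13.

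Genes with the most similar pattern were ranked by Pearson correlation of log2(intensity + 32) over the 8 progenitor arrays, which share the 4 groups and a common scale. Closest to Bach2 were Mef2a (0.999), 2810013P06Rik (0.998) and Trim24 (0.998). Closest to Bach1 were Stard8 (0.991), Krt80 (0.988) and Dram2 (0.987). Mafk was nearest to Nfatc1 (0.994), Taf8 (0.993) and Trmt13 (0.993), and Mafg to Akap10 (0.971), B830008H07Rik (0.952) and Pom121 (0.942). For the dim Maf and Maff the highest values were 0.978 (Emsy) and 0.904 (Inpp5b).

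Among the factors that share small Maf partners with the Bach proteins, Nfe2 and Nfe2l2 were lower in pre-cDC than in CMP. Nfe2l3 was called higher but was dim, with means of 12.0 in pre-cDC and 6.3 in CMP (0.20 on the log2 scale). Of 6 CNC factors and regulators, counted by the brightest probe set of each gene, 1 was higher and 2 were lower in pre-cDC than in CMP, beside 18.7% of all genes higher and 22.6% lower. Nfe2l2, the main activator of antioxidant genes, had 267 ± 19.7 in pre-cDC and 650.1 ± 39.3 in CMP (SD, n = 2 each; -1.19 on the log2 scale, adjusted p = 6.99e-06). Nfe2, the erythroid and megakaryocytic CNC factor, had 306 ± 20.0 in pre-cDC and 636 ± 39.2 in CMP (SD, n = 2 each; -0.98 on the log2 scale, adjusted p = 8.15e-06). Both were already lower in CDP than in CMP, with differences of -0.85 and -0.93 on the log2 scale, and Cul3, a part of the ligase that degrades Nfe2l2, was higher by 0.34. No gene of the list passed the test in GMP against CMP. In pre-cDC against GMP 2 of 6 were higher and 2 lower, beside 20.7% of all genes higher and 22.7% lower. In pre-cDC against CDP 1, the dim Nfe2l3, was higher (0.22) and 0 were lower, beside 13.7% and 18.1% of all genes. Of 3 other Maf family genes listed, only Nrl was analysed here, and it passed no test.

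Genes of antioxidant defence, known targets of Nfe2l2 with small Maf proteins, were more often lower than higher in pre-cDC. Of 16 measured, 8 fell and 2 rose in pre-cDC against CMP, beside 22.6% of all genes lower and 18.7% higher. Gclm, a subunit of the enzyme that starts glutathione synthesis, had 102 ± 3.27 in pre-cDC and 714 ± 140.2 in CMP (SD, n = 2 each; -2.46 on the log2 scale, adjusted p = 5.20e-08). Txnrd1, thioredoxin reductase, had 179 ± 4.43 in pre-cDC and 1012 ± 166 in CMP (SD, n = 2 each; -2.30 on the log2 scale, adjusted p = 6.18e-09). The glutathione transferase Gstm1 fell by 1.76 and glutathione reductase Gsr by 1.24 on the log2 scale, while the exporter Abcc1 rose, with 917 ± 118 in pre-cDC and 388 ± 69.3 in CMP (adjusted p = 1.44e-05). Against CDP, 6 of 16 fell and 2 rose in pre-cDC, where 18.1% of all genes were lower and 13.7% higher. Txnrd1 had 179 ± 4.43 in pre-cDC and 951 ± 27.4 in CDP (SD, n = 2 each; -2.22 on the log2 scale, adjusted p = 2.18e-08).

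GMP showed the opposite sign for part of the same list. In GMP against CMP 5 of 16 antioxidant genes rose and 0 fell, beside 6.58% of all genes higher and 9.14% lower. Gstm1 had 2677 ± 109 in GMP and 218 ± 28.9 in CMP (SD, n = 2 each; 3.44 on the log2 scale, adjusted p = 1.77e-08), and Gsr had 1571 ± 59.9 in GMP and 213 ± 29.5 in CMP (SD, n = 2 each; 2.72 on the log2 scale, adjusted p = 1.49e-07). In CDP against CMP 4 of 16 fell and 0 rose, beside 6.04% of all genes lower and 6.84% higher. Gclm led them at -1.44 on the log2 scale. The counts were 0 higher and 7 lower in CDP against GMP, beside 15.3% and 11.6% of all genes, and 2 higher and 9 lower in pre-cDC against GMP, beside 20.7% and 22.7%. Median differences of the list were -0.21 for pre-cDC against CMP and 0.11 for GMP against CMP, beside medians of all genes within 0.01 of 0.

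**Figure D3:**
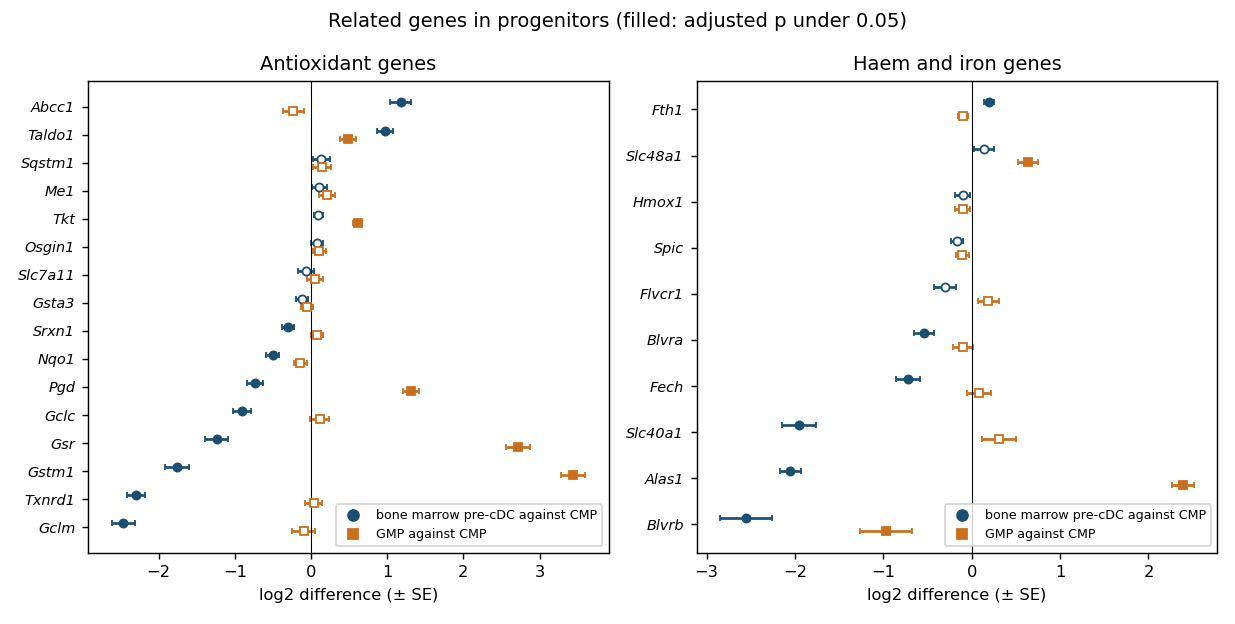
Log2 differences of intensity + 32 for antioxidant genes and for haem and iron genes, in pre-cDC against CMP (circles) and GMP against CMP (squares), with filled symbols for adjusted p under 0.05. Most called antioxidant genes lie left of 0 in pre-cDC, with Gclm at -2.46, and Gstm1 and Gsr lie far to the right in GMP.

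Haem and iron genes that passed the test were mostly lower in pre-cDC than in CMP, and erythroid markers were lower too. Of 10 measured, 5 fell and 1 rose in pre-cDC against CMP, beside 22.6% of all genes lower and 18.7% higher. Alas1, the first enzyme of haem synthesis, had 64.5 ± 12.1 in pre-cDC and 368 ± 1.71 in CMP (SD, n = 2 each; -2.05 on the log2 scale, adjusted p = 2.76e-08), and 2066 ± 85.3 in GMP (2.39 against CMP, adjusted p = 5.37e-08). Blvrb, a biliverdin reductase of red cells, fell by 2.55 and the iron exporter Slc40a1 by 1.96 on the log2 scale in pre-cDC against CMP. In CDP against CMP 5 of 10 fell and 0 rose, beside 6.04% of all genes lower and 6.84% higher, and in GMP against CMP 2 rose and 1 fell, beside 6.58% higher and 9.14% lower. The counts were 2 higher and 2 lower in pre-cDC against CDP, beside 13.7% and 18.1% of all genes. They were 0 higher and 6 lower in CDP against GMP, beside 15.3% and 11.6%, and 1 higher and 7 lower in pre-cDC against GMP, beside 20.7% and 22.7%. Of 6 measured erythroid markers, 5 were lower and 0 higher in pre-cDC and in CDP than in CMP, and the same counts held against GMP. Their summed intensities were 57.0 and 68.9 in pre-cDC, 144 and 206 in CDP, 5364 and 4056 in CMP and 2538 and 4546 in GMP. The part of the erythroid transcripts in the differences of the haem and iron genes was not tested.

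Of 3 genes known to be repressed by Bach factors, 1 passed a test among progenitors. Cebpb, a myeloid factor, had 707 ± 66.6 in GMP and 287 ± 18.7 in CMP (SD, n = 2 each; 1.21 on the log2 scale, adjusted p = 0.000331), and 289.9 ± 36.8 in pre-cDC (-1.20 against GMP, adjusted p = 6.31e-05). Hmox1, haem oxygenase, and Prdm1, the plasma cell regulator Blimp-1, passed no test, but both were dim. Group means were 4.1 to 6.9 for Hmox1 and 10 to 11.9 for Prdm1, under the progenitor array medians of 15.95 to 17.44. Differences of dim values are understated, so these tests cannot show whether Hmox1 and Prdm1 were unchanged. Of 15 macrophage genes tied to large Maf factors, 3 rose and 0 fell in pre-cDC against CMP, and 4 rose and 1 fell in pre-cDC against CDP. Over all genes 18.7% rose and 22.6% fell against CMP, and 13.7% rose and 18.1% fell against CDP, so 3 of 15 is near the background. Cd163, a haemoglobin scavenger receptor, led the list with 484 ± 31.2 in pre-cDC and 89.7 ± 11.2 in CMP (SD, n = 2 each; 2.09 on the log2 scale, adjusted p = 1.25e-08).

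In the cultures, Maf was the member that differed most by growth factor. The arrays are single, so there is no test, and a probe set counts as different when it is 4-fold or more apart on log2(intensity + 32) with its higher value above the array median. Maf at 1456060_at had 635 in CD11c+ cells of GM-CSF cultures, 1063 in adherent cells of GM-CSF cultures and 4693 in adherent cells of M-CSF cultures. M-CSF cells had the brightest value and CD11c+ cells the dimmest at each of the 6 Maf probe sets. The adherent GM-CSF value was -2.11 on the log2 scale against M-CSF at 1456060_at, -3.21 at 1435828_at, -3.10 at 1437473_at and -3.15 at 1447849_s_at. The dimmer 1444073_at and 1447945_at had -0.92 and -0.48.

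The next brightest Maf probe set, 1447849_s_at, had 141 in CD11c+ cells, 235 in adherent GM-CSF cells and 2338 in adherent M-CSF cells. In adherent GM-CSF against adherent M-CSF cells 0 of 15 member probe sets were at least 4-fold higher and 4 lower, all of Maf, where 1.06% of all probe sets were past 4-fold in either direction. At 2-fold the members' counts were 1 higher and 4 lower, where the background was 4.40%. In CD11c+ against adherent M-CSF cells 4 Maf probe sets were at least 4-fold lower, where the background was 2.06%. At 2-fold 5 were lower, where it was 8.33%. In CD11c+ against adherent GM-CSF cells 0 were past 4-fold, where the background was 0.489%. At 2-fold 1 was lower, Maf 1437473_at at -1.14, where it was 3.03%.

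The other members differed less between the cultures. Maff had 84.6 in CD11c+ cells, 127 in adherent GM-CSF cells and 37.4 in adherent M-CSF cells, a difference of 1.19 on the log2 scale between the adherent samples. It is the 1 member probe set over 2-fold higher with GM-CSF. Mafg (1448916_at) had 285, 376 and 369.9 in these 3 samples, and Mafk had 328, 262 and 266. Bach1 (1440831_at) had 2267 in CD11c+ cells, 2488 in adherent GM-CSF cells and 2297 in adherent M-CSF cells, all above the 95th percentile of their array. The other Bach1 probe set, 1449311_at, had 180.4, 142 and 133 in these samples, between the 69.4th and 72.7th percentile. Bach2 was near the array median, with 31.1, 14.8 and 25.0 at 1436515_at in these 3 samples.

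**Figure D4:**
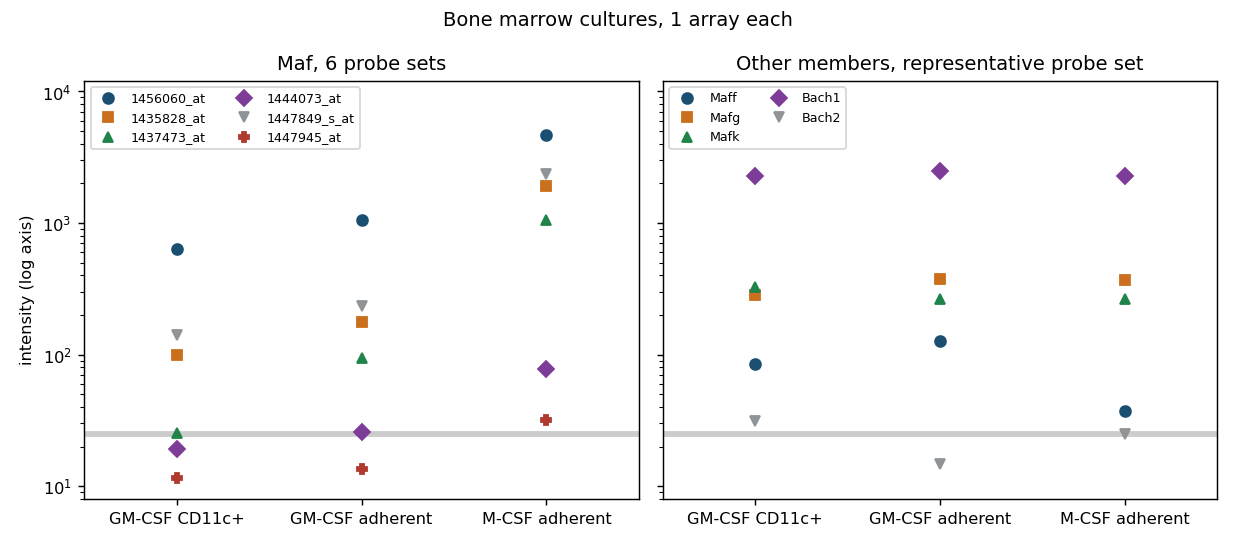
Intensities (log axis) of the 6 Maf probe sets and of the representative probe sets of the other members in CD11c+ and adherent cells of GM-CSF cultures and adherent cells of M-CSF cultures, 1 array each. The grey band spans the array medians, 24.1 to 25.7. All 6 Maf probe sets are brightest in M-CSF cells, and Mafg, Mafk and Bach1 run nearly level.

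Macrophage genes tied to large Maf factors differed in both directions between the cultures. Their median difference was -0.48 for adherent GM-CSF against adherent M-CSF cells and -0.34 for CD11c+ against adherent M-CSF cells, beside -0.016 and 0.0051 over all genes. Of 15, 3 were at least 4-fold higher and 2 lower in adherent GM-CSF than in adherent M-CSF cells, beside 1.14% of all genes higher and 0.302% lower. Folr2, a folate receptor, had 26.2 with GM-CSF and 1529 with M-CSF, and Cd5l, a secreted macrophage protein, had 792 with GM-CSF and 9143 with M-CSF. On the other side, Axl, a receptor for apoptotic cells, had 4388 with GM-CSF and 632 with M-CSF, and F13a1, a coagulation factor chain, had 1824 with GM-CSF and 331 with M-CSF. In CD11c+ against adherent M-CSF cells 2 of 15 were higher and 2 lower, beside 1.96% and 0.764% of all genes. In CD11c+ against adherent GM-CSF cells 0 were higher and 2 lower, beside 0.561% and 0.165%. Of the antioxidant genes 1 of 16, the cystine transporter Slc7a11, was past 4-fold, with 454 in CD11c+ cells, 482 in adherent GM-CSF cells and 22.4 in adherent M-CSF cells. Nfe2 was the 1 gene of 6 past 4-fold among the CNC factors, with 235, 304 and 28.4 in the same samples. Hmox1 stayed within 2-fold, and Slc40a1 was the 1 haem and iron gene past 4-fold, with 597 in CD11c+ cells and 3339 in adherent M-CSF cells.

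The culture samples also held granulocyte transcripts, with the higher sums in the adherent cells. All 5 measured neutrophil markers were above the array median in both adherent samples, and 4 of 5 were in CD11c+ cells. Their summed intensities were 1299 in CD11c+ cells, 20606 in adherent GM-CSF cells and 9530.2 in adherent M-CSF cells. All 5 macrophage markers were above the array median on the 3 arrays. The part of the neutrophil transcripts in the differences of the members was not tested.

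In monocytes given GM-CSF, Maff and Bach2 were the members that differed in opposite directions with time. Maff had 89.8 at 0 h, 1079.7 at 24 h and 1330.4 at 48 h. The 0 h value lay just above the array median and the later values well above it. The difference was 3.19 on the log2 scale at 24 h against 0 h and 3.48 at 48 h against 0 h, which is 11.2-fold on the intensity + 32 scale. Bach2 at 1436515_at had 469 at 0 h, 190.0 at 24 h and 84.8 at 48 h. It was lower at each later time, and at 48 h it was close to the array median, a difference of -2.10 against 0 h. The second Bach2 probe set, 1437667_a_at, had 157, 102 and 64.9 at the 3 times (-0.96 at 48 h against 0 h), and the third, 1445460_at, stayed at 90.8 to 106.

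Of the 15 member probe sets, 1 was at least 4-fold higher and 0 lower at 24 h against 0 h, where 3.29% of all probe sets were past 4-fold. At 2-fold the counts were 1 and 1, where the background was 12.6%. At 48 h against 0 h 1 was higher and 1 lower by 4-fold, where it was 3.83%, and 1 higher and 2 lower by 2-fold, where it was 12.5%. At 48 h against 24 h 0 were past 4-fold, where it was 0.529%, and 0 past 2-fold, where it was 2.99%. The members past 4-fold were Maff and Bach2 1436515_at, and the second past 2-fold downwards at 48 h was Mafg 1434054_at.

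The remaining members differed less over the monocyte times. Maf at 1456060_at had 1749 at 0 h, 2622 at 24 h and 2599 at 48 h, in the 86th to 90th percentile of its arrays. The other Maf probe sets were much dimmer, with 194 to 316 at 1447849_s_at. The values of 50.2 to 99.0 at 1435828_at and 112 to 119 at 1437473_at lay nearer the array medians. Both 1444073_at (3.17 to 39.1) and 1447945_at (28.1 to 48.2) were under the array median at every time, so the level of Maf depends on the probe set. Mafg had 2744, 2050.1 and 1929.5 at 1448916_at and 1441, 919.8 and 679.6 at 1434054_at, the lowest at 48 h in both. Mafk was level, with 1340.0, 1287 and 1331. Bach1 had 8848 at 0 h, 6113 at 24 h and 6236 at 48 h, a difference of -0.50 at 48 h against 0 h.

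**Figure D5:**
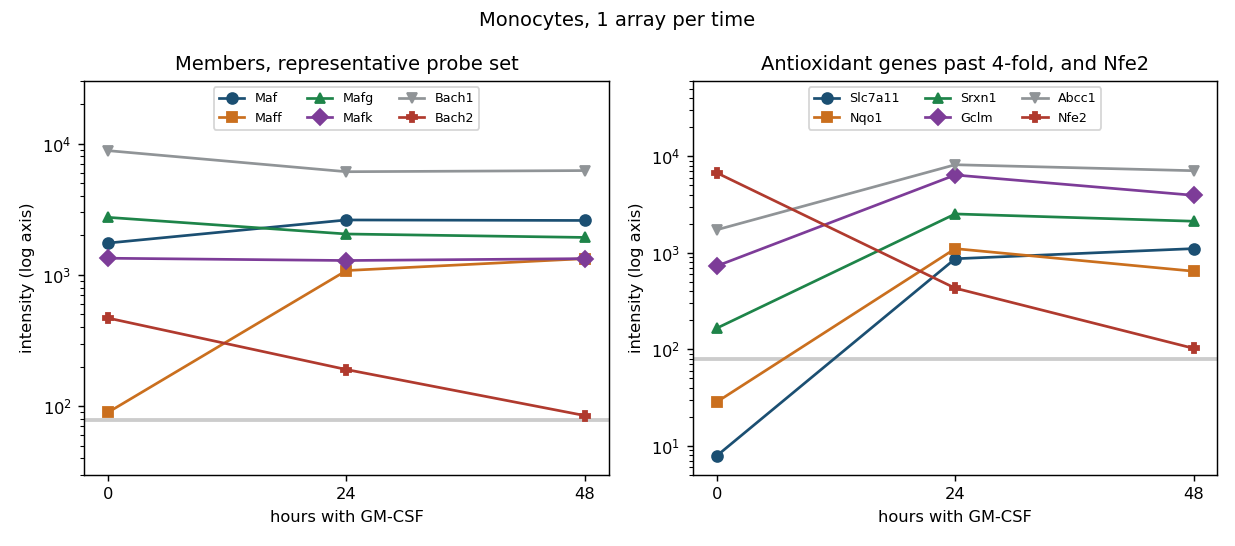
Intensities (log axis) of the members' representative probe sets, and of Slc7a11, Nqo1, Srxn1, Gclm, Abcc1 and Nfe2, in bone marrow monocytes after 0, 24 and 48 h with GM-CSF, 1 array a time. Maff stands at 89.8, 1079.7 and 1330.4, Bach2 and Nfe2 are lower at each later time, and the 5 antioxidant genes are higher at 24 and 48 h than at 0 h.

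Part of the antioxidant genes were much higher after GM-CSF in the monocytes. Of 16, 5 were at least 4-fold higher and 0 lower at 24 h against 0 h, beside 1.90% of all genes higher and 2.11% lower, and the median difference of the list was 0.83. Slc7a11, the cystine transporter, had 7.87 at 0 h, 865 at 24 h and 1102 at 48 h. Nqo1, a quinone reductase, had 28.4, 1101 and 643, and Srxn1, sulfiredoxin, had 165, 2519 and 2117. Gclm had 728 at 0 h, 6379 at 24 h and 3930.1 at 48 h. At 48 h against 0 h the count was again 5 higher and 0 lower, beside 2.97% and 1.80% of all genes. At 48 h against 24 h no gene of the list was past 4-fold.

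Nfe2 was the 1 CNC factor of 6 past 4-fold, with 6715 at 0 h, 429 at 24 h and 102 at 48 h. Among genes known to be repressed by Bach factors, Prdm1 had 126 at 0 h, 665 at 24 h and 738 at 48 h, while Hmox1 had 633, 533 and 624. Of 10 haem and iron genes, 1 was higher by 4-fold at 24 h, Blvrb, with 1121 at 0 h and 6913 at 24 h, beside 1.90% of all genes. At 48 h against 0 h 2 were higher, beside 2.97%, and 0 were lower at either time, beside 2.11% and 1.80%. Of 15 macrophage genes tied to large Maf factors, 5 were higher and 1 lower at 24 h against 0 h. Over all genes 1.90% were higher and 2.11% lower. At 48 h against 0 h 7 of the 15 were higher and 1 lower, beside 2.97% and 1.80% of all genes. C1qa, a complement chain, had 11.4 at 0 h, 1347 at 24 h and 1635 at 48 h, and Axl had 72.3, 5424 and 5403.

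Transcripts of other cell types differed in the same arrays. The 5 measured neutrophil markers summed to 16231 at 0 h, 2593 at 24 h and 3698 at 48 h, all 5 above the array median at each time. The 8 measured B lineage markers summed to 1235, 1336 and 2285, with 3, 2 and 2 above the median. The sum is dominated at the later times by Blnk, an adaptor also bright in the M-CSF culture (4258), with 79.3 at 0 h, 945 at 24 h and 1965 at 48 h. By contrast, Cd79b had 700.3 at 0 h, 25.0 at 24 h and 20.0 at 48 h, whereas Cd79a, at 39.8, 44.5 and 37.3, was under the array median throughout. Of 5 GMP markers 3 were at least 4-fold lower and 0 higher at 24 h against 0 h, beside 2.11% and 1.90% of all genes. The same counts held at 48 h against 0 h, beside 1.80% and 2.97%, and the list medians were -2.50 and -4.01. Among the GMP markers, Prtn3, a granule protease, had 10005 at 0 h, 166 at 24 h and 156 at 48 h. The part of these transcripts in the time course of Bach2, Maff and Nfe2 was not tested.

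On the pre-cDC array titled Spl, Bach1 and Maff lay above the bone marrow pre-cDC arrays by more than the shift of all probe sets. The median difference of all probe sets was 0.84 on the log2 scale, so each difference is given beside it, with no test. Bach1 at 1440831_at had 3922 on the Spl array, against 824 and 885 in bone marrow pre-cDC, a difference of 2.16, and 3.89% of all probe sets had a larger one. At 1449311_at the difference was 1.75, and 9.0% had a larger one. Maff had 153 on the Spl array, against 5.09 and 8.91 in bone marrow pre-cDC, a difference of 2.25, and 3.30% had a larger one. Bach2 at 1436515_at had 1056 on the Spl array, against 682 and 797 in bone marrow pre-cDC, a difference of 0.50 that is smaller than the median shift. Its rank was alike, at percentile 93.7 on the Spl array and 93.6 and 94.7 in bone marrow pre-cDC. After quantile normalization its difference was -0.10. Mafk (1.09) and Mafg (1.18 at 1448916_at) lay 0.26 and 0.34 above the median shift, while the Maf probe sets disagreed. At 1437473_at Maf had 146 on the Spl array, against 16.01 and 14.5 in bone marrow pre-cDC, a difference of 1.91, and 6.40% of all probe sets had a larger one. At 1456060_at it had 87.9, close to the array median, a difference of 1.58, and at 1435828_at and 1447849_s_at the differences were 0.44 and 0.42, under the median shift. The tissue, the gate and the scale of this array cannot be told apart in these differences.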

How the data were processed

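Per the labels' protocols, RNA was labelled with a 3' IVT Express kit. The deposited value table holds 1 linear intensity for each of 45037 probe sets and 15 arrays. The authors' background correction, probe summary and scaling are not stated in the sources used. All 15 columns were matched to samples, and 0 were left over. The annotation names 1 gene for 34945 probe sets, several for 932 and no gene for 9160. Only those with 1 gene entered, with symbols updated through Entrez identifiers (18032 of 18194 symbol and identifier pairs matched).

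From these intensities log2(intensity + 32) was computed, so differences of dim values are understated. The 6 progenitor comparisons share 1 linear model of the 8 arrays and 4 groups, fitted in R 4.3.3 with limma 3.58.1 and moderated with a trend on intensity. The residual degrees of freedom were 4, or 12.4 once moderated. Two-sided p-values were adjusted by Benjamini-Hochberg within each comparison, the threshold was 0.05, and the script was tested on simulated data. The 6 comparisons of cultures and monocytes were single arrays against single arrays. The number of arrays limits the precision.

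A gene with several probe sets is represented by the one with the highest mean over all arrays. The text names every member probe set, up to 4 genes a list and comparison among those with the largest differences past the threshold, and the 3 genes most correlated with a member. The 6 lists of related genes and 11 of cell markers, like the members, were chosen with earlier results of these data known. Alternatives were an added value of 16, quantile normalization, median scaling, a filter on dim probe sets (21423 kept), 1 probe set a gene, eBayes without trend, a replicate block, single arrays left out, and a 2-fold threshold. Python 3.11.15 with matplotlib 3.10.9 drew the figures.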

Additional observations from a re-analysis of the deposited data

How the results depend on the processing

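No member difference changed sign under a called value. Of 90 tested member differences 31 were called. Of these, 20 were called under every alternative: all of Bach1, all at the 2 brighter Bach2 probe sets, and Mafk in CDP and in pre-cDC against GMP. Of the 59 others, 8 were called under some alternative. Leaving out 1 array gave 2 to 3 called member probe sets in GMP against CMP, 2 to 3 in CDP against CMP, 3 to 6 in CDP against GMP, 4 to 6 in pre-cDC against CDP, 5 to 8 in pre-cDC against GMP and 5 to 7 in pre-cDC against CMP. The 3 of CDP against GMP came without GMP replicate 1, and the 5 of pre-cDC against GMP without either GMP array. Over all probe sets it gave 2427 to 5310, 1939 to 3837, 5769 to 9071, 7235 to 9423, 11691 to 14798 and 10778 to 13650 calls in the same order, the fewest in the first without CMP replicate 2 and in the second without CMP replicate 1. Quantile normalization called 8 member probe sets in CDP against GMP, adding Mafg 1448916_at, Bach1 1440831_at and Maf 1447945_at, all lower in CDP. The calls over all probe sets after quantile normalization are not given here, so this count says nothing particular about the members. It left 0 members past 4-fold on the Spl array, where 2 were. With 1 probe set a gene, which tests fewer by construction, the member calls were 1 in CDP against CMP, 2 in pre-cDC against CDP, 4 against GMP and 3 against CMP, and all calls were 3049 in GMP against CMP, 5090 in CDP against GMP, 6041 in pre-cDC against CDP, 8013 against GMP and 7670 against CMP. At 2-fold, 1 member probe set was past it in CD11c+ against adherent GM-CSF cells and 2 in monocytes at 24 h. The cause of these changes was not tested.

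The numbers WT1 and WT2 occur in all 4 progenitor groups, but nothing in the labels says that they pair the samples, and deviations of same-numbered arrays correlated at 0.0228 to 0.26. With the number as a replicate block, 4 member probe sets were called in GMP against CMP, 2 in CDP against CMP, 6 in CDP against GMP, 6 in pre-cDC against CDP, 8 against GMP and 7 against CMP. Mafg 1448916_at was newly called, at adjusted p = 0.0282 for GMP against CMP and 0.0174 for CDP against GMP. The calls over all probe sets with the block are not given here, so these counts say nothing particular about the members.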

Other observations

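Cd163, the haemoglobin scavenger receptor, had the same order of progenitor groups as Bach2, with 89.7 ± 11.2 in CMP, 20.0 ± 0.389 in GMP, 305 ± 6.15 in CDP and 484 ± 31.2 in pre-cDC (SD, n = 2 each). Pre-cDC exceeded CDP by 0.61 on the log2 scale and CDP exceeded CMP by 1.47, while GMP differed from CMP by -1.22, with limma adjusted p = 0.00101, 5.06e-06 and 1.09e-05 in that order. The same order of groups held for Mafk, the monocyte marker Cx3cr1 and the dendritic cell markers Cd74 and H2-Aa, so it is not particular to Cd163 and Bach2. Maf was dim in all 4 groups, and a link of Cd163 with Bach2 or Maf was not tested.

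Nfe2 had 6715 in monocytes at 0 h, 429 at 24 h and 102 at 48 h, a difference of -5.65 on the log2 scale at 48 h against 0 h, while 5 of 16 antioxidant genes were at least 4-fold higher at both later times. In the 7-day cultures it was higher with GM-CSF, with 235 in CD11c+ and 304 in adherent GM-CSF cells, against 28.4 in adherent M-CSF cells. The cell source, the time and the array scale differ between these sets and cannot be told apart.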
